A study of Homo sapiens with 9 samples.

Results

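The BCL2 family genes measured here were BCL2, BCL2L1, MCL1, BAX, BAK1, BBC3, PMAIP1, BCL2L11, BID and BAD. They were taken as all expression probes whose transcript is assigned by RefSeq to 1 of these 10 symbols, which gave 15 of 58201 probes and 10 of 47753 gene names. That rule uses gene symbols alone. OEC-M1, an established cell line of head and neck squamous cell carcinoma, was transfected with siRNA, and total RNA was hybridised with 1 dye to 9 Agilent arrays. The siControl cells received a non-targeting siRNA (3 arrays), the siGATA3 cells an siRNA against GATA3 (3 arrays) and the siHIF1A cells an siRNA against HIF-1α (3 arrays). All cells, siControl included, were held at 1% O2 for 18 h, with transfection for 72 h. No culture at normal oxygen was part of these arrays, so the comparisons measure a knockdown within hypoxia and not hypoxia itself. The supplementary material names a single sequence for each target (1 siRNA against GATA3 and 1 against HIF-1α), so effects of that sequence and of losing the target cannot be told apart. Nothing in the labels says that arrays of a group came from separate cultures, and p-values measure the spread between these arrays only.

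The BCL2 family decides whether the outer mitochondrial membrane is opened during apoptosis. BAX and BAK1 form the pore that lets cytochrome c out. BCL2, BCL2L1 (the gene of BCL-XL) and MCL1 hold the pore formers in check. The BH3-only proteins tip the balance towards death. BCL2L11 (BIM), BBC3 (PUMA), BID and PMAIP1 (NOXA) each bind some or all of these guardians. BIM and cleaved BID can also activate BAX and BAK1, and BAD binds BCL2 and BCL-XL. In solid tumours, low oxygen is met by HIF-1, whose subunit HIF-1α is encoded by HIF1A, and GATA3 is a zinc finger transcription factor that binds GATA motifs.

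Both targets were lower in the arrays labelled for them. GATA3 was lower by 1.26 on the log2 scale in siGATA3 than in siControl (log2 fold change -1.26, SE 0.34, unadjusted p = 0.00391 in limma), and HIF1A was 4.97-fold lower in siHIF1A (log2 fold change -2.31, SE 0.35, unadjusted p = 5.67e-05). The median spot intensity ran from 992.5 to 3560 over the arrays, and the share of probes that the scanner software marked as well above background from 74.3% to 88.5%. The dimmest array was siControl replicate 3, and the other siControl arrays had medians of 2126.5 and 2807.5. Of 9 epithelial markers, 7 were well above background on all 9 arrays, and KRT5 was on none. The same mark was passed on all arrays by 3 of 4 blood markers, 3 of 3 endothelial markers and 1 of 4 fibroblast markers (LUM passed on none). That mark is passed by probes of some genes an epithelial line should lack, and it was not read as expression. Such signal was not always dim. The probes of PTPRC, a blood marker, had mean log2 intensities of 16.33, 16.06, 9.75, 7.2 and 7.1. Whether the brightest probe of a gene reads that gene alone was not tested. Each slide held 1 array of each group with the same replicate number, so differences within a slide are given beside the results.

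None of the 10 genes passed the threshold in any of the 3 comparisons in the main fit, which has no block for the slide. With the replicate number as a block, 2 passed between the knockdowns, BCL2L1 and BCL2L11. In RNA of whole cultures, fewer cells expressing a gene and less RNA per cell cannot be told apart. A gene was counted at an unadjusted two-sided p of 0.05 in limma, with 1 probe, its brightest, standing for it. In siGATA3 against siControl 0 of 10 genes passed, where 2.94% of all genes tested did. In siHIF1A against siControl 0 of 10 passed, where 5.22% of all genes did. In siGATA3 against siHIF1A 0 of 10 passed, where 12% of all genes did. Tested singly, 0 of the 15 probes passed in each comparison, where 3.11%, 5.32% and 12.3% of all probes did. After Benjamini-Hochberg adjustment in limma 0, 0 and 2 of all genes were left (0.00422% in siGATA3 against siHIF1A), and 0 of these were BCL2 family genes. The 95% confidence intervals given with each gene show the sizes of change that these arrays could not separate from 0.

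The log2 fold changes of the 10 genes ran from -0.13 to 0.57 in siGATA3 against siControl, with a median of 0.24 and 8 of 10 genes above 0, where all genes had a median of -0.02 and 47.9% above 0. In siHIF1A against siControl they ran from -0.38 to 0.76, with a median of 0.06 and 5 of 10 above 0, where all genes had a median of -0.01 and 49.1% above 0. These comparisons share the siControl arrays. In siGATA3 against siHIF1A they ran from -0.88 to 0.66, with a median of 0.27 and 7 of 10 above 0, where all genes had a median of 0.00 and 50.1% above 0. Arrays of the groups overlapped for all 10 genes in both comparisons with siControl, where 6.02% (siGATA3) and 13.3% (siHIF1A) of all genes did not overlap. Between the knockdowns the arrays did not overlap for 3 genes, BAX (higher in siGATA3) and BCL2 and BCL2L11 (lower in siGATA3), where 22.8% of all genes did not.

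The promoters of these 3 genes are shown because HIF-1 and GATA3 bind DNA. The genes were picked from these same arrays, as the family genes whose brightest probes did not overlap between the knockdowns. Among all genes 22.8% did not overlap there, so the pick does not set these genes apart. Their other probes did overlap there. Whether either factor acts on these promoters was not tested. Each window covers 250 bases before and 50 after the start site in RefSeq (GRCh38.p14), written 5′ to 3′ on the strand of the gene. Capitals mark the core of the HIF motif, ACGTG or GCGTG, on either strand, so that CACGT and CACGC are the same words on the opposite strand and CACGTG counts on both.
BAX (chr19:48954625-48954924, plus strand): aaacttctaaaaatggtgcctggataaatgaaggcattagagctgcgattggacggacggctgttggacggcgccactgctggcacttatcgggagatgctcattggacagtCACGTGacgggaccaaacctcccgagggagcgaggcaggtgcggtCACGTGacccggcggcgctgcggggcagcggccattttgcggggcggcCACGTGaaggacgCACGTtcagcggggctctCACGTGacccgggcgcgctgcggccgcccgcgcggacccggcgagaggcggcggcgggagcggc
BCL2 (chr18:63319720-63320019, minus strand): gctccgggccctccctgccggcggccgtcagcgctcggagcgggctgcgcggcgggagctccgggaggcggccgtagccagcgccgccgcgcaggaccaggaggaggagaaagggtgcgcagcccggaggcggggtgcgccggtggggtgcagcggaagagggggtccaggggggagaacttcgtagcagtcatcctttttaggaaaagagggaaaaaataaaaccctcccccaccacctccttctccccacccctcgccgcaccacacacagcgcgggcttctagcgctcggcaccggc
BCL2L11 (chr2:111120664-111120963, plus strand): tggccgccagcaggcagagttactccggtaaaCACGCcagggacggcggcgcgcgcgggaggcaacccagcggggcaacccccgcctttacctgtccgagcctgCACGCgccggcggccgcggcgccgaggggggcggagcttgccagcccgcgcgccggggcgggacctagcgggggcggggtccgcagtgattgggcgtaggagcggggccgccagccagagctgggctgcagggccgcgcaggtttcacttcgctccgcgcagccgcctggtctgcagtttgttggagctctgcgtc

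The BAX window held 9 matches, of which 8 came from 4 copies of CACGTG read on both strands, the BCL2L11 window held 2 and the BCL2 window 0. The HIF core is short and was present in 48.4% of 35116 RefSeq windows of the same length, and in 11 of the 15 windows found for the family (7 of 9 genes with a window). The GATA words searched on both strands were AGATAA or AGATAG, and also TGATAA or TGATAG, which were in 25.0% of all windows and in 0 of the 15. These counts describe letters in the windows and not binding.

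**Figure D1:**
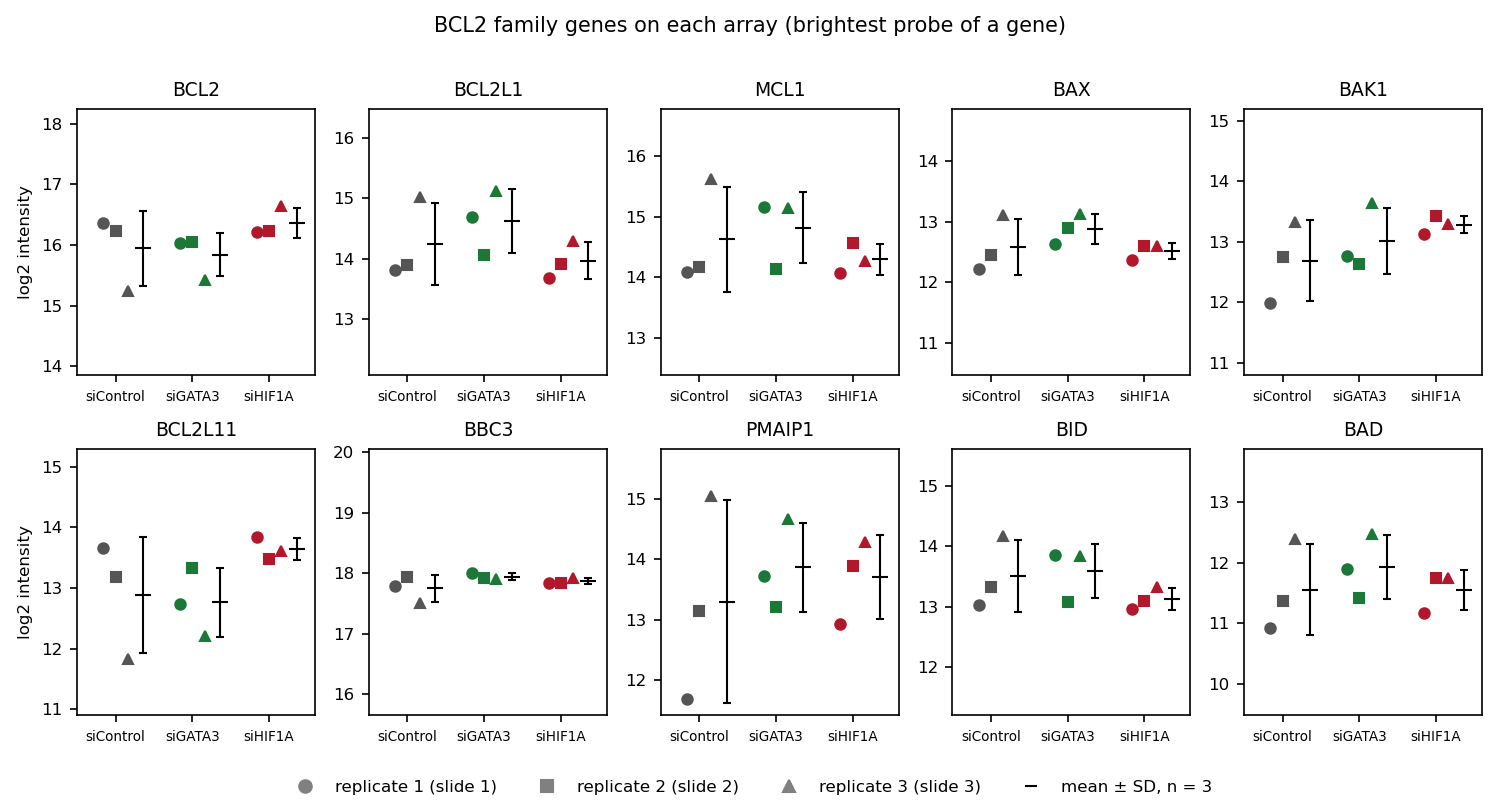
Log2 intensity of the brightest probe of each of the 10 genes (vertical axis, each panel spanning the same range of log2 units) on the 3 arrays of each group, with the marker shape giving the replicate and slide and the bar the mean ± SD over 3 arrays. The siControl arrays of PMAIP1 spread from 11.70 to 15.04, and those of BBC3 stay between 17.51 and 17.94.

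Among the guardians, BCL2 had log2 intensities of 16.37, 16.23 and 15.24 on siControl replicates 1, 2 and 3, of 16.04, 16.05 and 15.43 on siGATA3 replicates 1, 2 and 3, and of 16.21, 16.24 and 16.64 on siHIF1A replicates 1, 2 and 3. All siHIF1A arrays lay above all siGATA3 arrays, and the siControl arrays reached into both groups. BCL2 differed by a log2 fold change of 0.42 in siHIF1A against siControl (SE 0.34, 95% interval -0.33 to 1.17, unadjusted p = 0.242 in limma) and -0.11 in siGATA3 against siControl (-0.86 to 0.65). In siGATA3 against siHIF1A it was -0.53 (SE 0.34, -1.28 to 0.23, unadjusted p = 0.151 in limma), and within slides it was -0.18, -0.19 and -1.21. Most of the difference between knockdowns lay on slide 3. The brightest probe of PTPRC, a blood marker, had values near those of this BCL2 probe. They were 16.6, 16.6 and 15.2 in siControl, 16.4, 16.5 and 15.8 in siGATA3 and 16.6, 16.6 and 16.7 in siHIF1A. For PTPRC too, all siHIF1A arrays lay above all siGATA3 arrays. Whether the BCL2 probe reads BCL2 alone was not tested.

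A further BCL2 probe, designed on another transcript of the gene, gave 8.60, 8.70 and 8.91 in siControl, 8.45, 8.44 and 9.16 in siGATA3 and 8.78, 8.74 and 8.80 in siHIF1A, in replicate order as in all lists that follow. The groups overlapped, and its log2 fold changes were -0.05, 0.04 and -0.09 in the order siGATA3 against siControl, siHIF1A against siControl and siGATA3 against siHIF1A. These values depended on the scaling: the last was -0.67 with the processed signal (unadjusted p = 0.0437 in limma), -0.70 with the authors' log2 table (unadjusted p = 0.0355) and 0.02 with percentile scaling after normexp, and the first was -0.38, -0.40 and 0.04 in the same settings. The BCL2 probes ran opposite to each other over the 9 arrays (Pearson's r = -0.51, a description over arrays that share groups and slides), so which of them follows BCL2 is not settled by these files.

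For BCL2L1 the siControl arrays read 13.80, 13.90 and 15.02, the siGATA3 arrays 14.69, 14.06 and 15.11, and the siHIF1A arrays 13.69, 13.91 and 14.29. The highest array of the siControl group was replicate 3, close to siGATA3 replicate 3. In siGATA3 the log2 fold change against siControl was 0.37 (SE 0.39, -0.49 to 1.24, unadjusted p = 0.359 in limma), and siGATA3 was the higher on 3 of 3 slides by 0.88, 0.15 and 0.09. The largest fold of this gene was 1.57, in siGATA3 against siHIF1A (log2 fold change 0.66, SE 0.39, -0.21 to 1.52, unadjusted p = 0.122 in limma), with siGATA3 higher on all 3 slides by 1.00, 0.15 and 0.82. With the replicate number as a block the latter difference passed the threshold (unadjusted p = 0.0355 in limma), and so it did without siGATA3 replicate 2 (0.94, unadjusted p = 0.0461).

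MCL1, whose protein is turned over within hours in many cells, read 14.09, 14.18 and 15.63 in siControl. The siGATA3 arrays had 15.17, 14.14 and 15.15 and the siHIF1A arrays 14.07, 14.58 and 14.27. The brightest MCL1 array of all 9 was siControl replicate 3, and the siGATA3 arrays spread over 1 log2 unit. The log2 fold changes were 0.19 in siGATA3 (SE 0.44, -0.80 to 1.17) and -0.33 in siHIF1A (SE 0.44, -1.32 to 0.65) against siControl, and 0.52 between the knockdowns (-0.47 to 1.50). On slide 1 siGATA3 was above siControl by 1.09, and on slide 3 the difference was -0.49.

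Of the pore formers, BAX read 12.23, 12.45 and 13.11 in siControl, 12.64, 12.90 and 13.13 in siGATA3 and 12.37, 12.60 and 12.60 in siHIF1A. The lowest siGATA3 array was above the highest siHIF1A array, by a gap far smaller than the range of the siControl arrays. Between the knockdowns the log2 fold change was 0.37 (SE 0.28, -0.25 to 0.99, unadjusted p = 0.216 in limma), with siGATA3 higher within slides by 0.26, 0.31 and 0.53. Against siControl it was 0.30 in siGATA3 (-0.32 to 0.92), higher on 3 of 3 slides, and -0.07 in siHIF1A (-0.69 to 0.55). A BAX probe spotted 10 times per array gave -0.04, -0.33 and 0.29 in the same 3 comparisons, moved with the brighter probe over the 9 arrays (r = 0.83), and overlapped between all groups.

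BAK1 read 11.99, 12.74 and 13.33 in siControl, 12.76, 12.64 and 13.64 in siGATA3 and 13.13, 13.42 and 13.29 in siHIF1A. The siHIF1A arrays were the tightest and sat at the height of the brightest siControl array. The difference in siHIF1A was 0.59 on the log2 scale (SE 0.38, -0.25 to 1.43, unadjusted p = 0.147 in limma), made up of 1.14, 0.68 and -0.04 within slides 1, 2 and 3. In siGATA3 it was 0.33 (-0.51 to 1.17), and between the knockdowns -0.27 (-1.11 to 0.58). Without siControl replicate 3 the difference in siHIF1A was 0.91 and passed the threshold (unadjusted p = 0.0297 in limma).

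**Figure D2:**
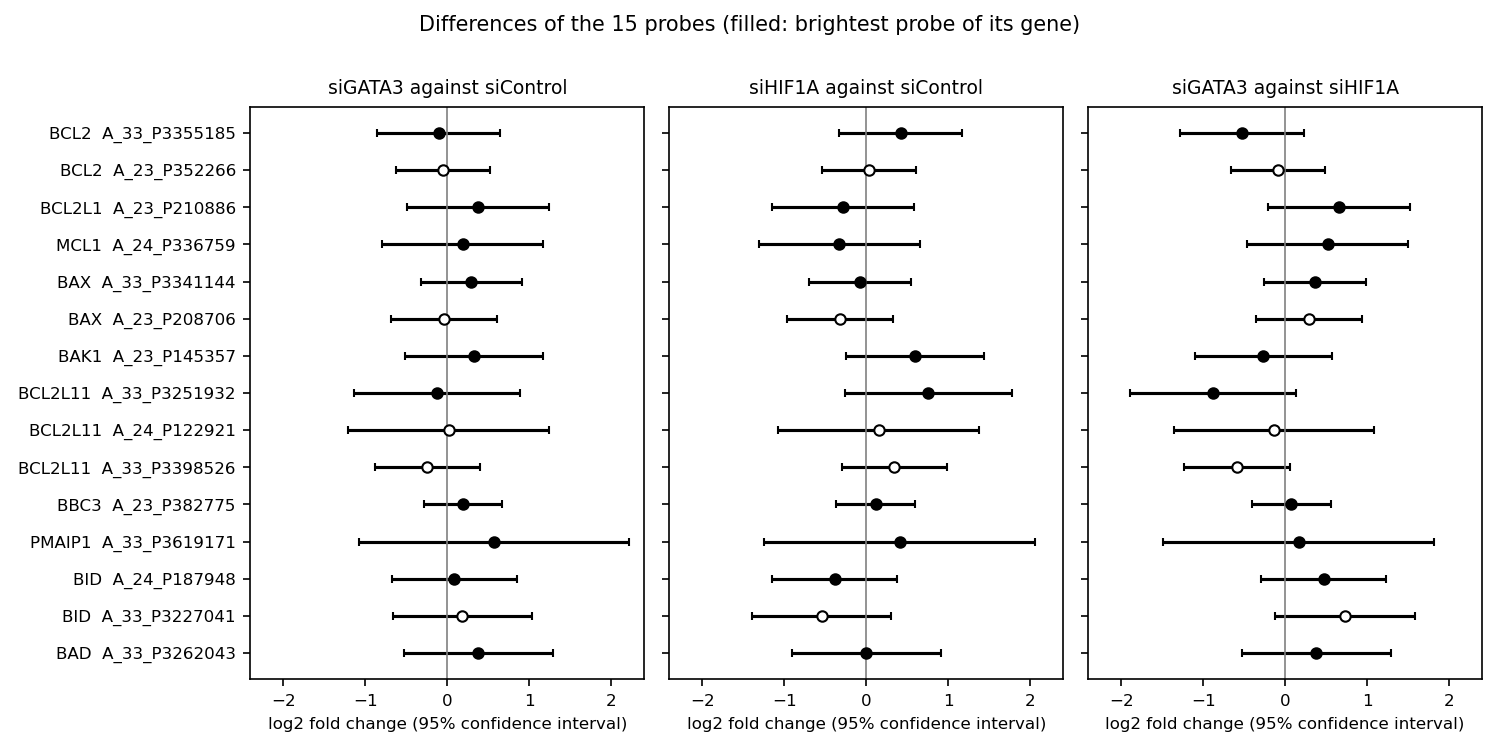
Log2 fold change (horizontal axis) with its 95% confidence interval for each of the 15 probes in the 3 comparisons, from the limma fit of all probes, with filled points for the brightest probe of a gene. Every interval crosses 0, and that of PMAIP1 is the widest.

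Among the BH3-only genes BCL2L11 had the largest log2 fold changes in both comparisons that involve siHIF1A. Its brightest probe read 13.66, 13.18 and 11.82 in siControl, 12.74, 13.34 and 12.21 in siGATA3 and 13.84, 13.48 and 13.62 in siHIF1A. All siHIF1A arrays lay above all siGATA3 arrays, and siControl replicate 3 was the lowest of the 9. The log2 fold change in siGATA3 against siHIF1A was -0.88, or 1.84-fold (SE 0.46, -1.90 to 0.13, unadjusted p = 0.0818, adjusted p = 0.436 in limma), with -1.10, -0.14 and -1.41 within slides. Against siControl it was 0.76 in siHIF1A (SE 0.46, -0.26 to 1.78, unadjusted p = 0.127 in limma), higher on 3 of 3 slides by 0.17, 0.31 and 1.79, and -0.13 in siGATA3 (-1.14 to 0.89). The brightest probe of VWF, an endothelial marker, had values close to those of the brightest BCL2L11 probe. They were 13.7, 13.5 and 11.4 in siControl, 12.6, 13.6 and 12.0 in siGATA3 and 13.9, 13.5 and 13.9 in siHIF1A. Whether the BCL2L11 probe reads BCL2L11 alone was not tested.

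The call on BCL2L11 turned on the fit. In siGATA3 against siHIF1A it passed the threshold with the replicate number as a block (unadjusted p = 0.0368 in limma), in a fit of these 6 arrays alone (unadjusted p = 0.0214), without siControl replicate 3 (-0.88, unadjusted p = 0.0178) and without siGATA3 replicate 2 (-1.17, unadjusted p = 0.0412). In siHIF1A against siControl it passed without siControl replicate 1 (1.15, unadjusted p = 0.0293 in limma). The other BCL2L11 probes gave -0.14 and -0.59 in siGATA3 against siHIF1A. The first of them read 9.37, 10.68 and 11.21 in siControl, 9.72, 10.17 and 11.42 in siGATA3 and 9.96, 11.00 and 10.76 in siHIF1A, and overlapped between all groups. The other read 12.59, 12.64 and 12.99 in siControl, 12.02, 12.41 and 13.06 in siGATA3 and 13.15, 13.09 and 13.01 in siHIF1A. Its siHIF1A arrays lay just above its siControl arrays, at 13.01 against 12.99 for the nearest pair (log2 fold change 0.34, -0.30 to 0.99), 1 of 15 probes not to overlap there, where 13.1% of all probes did not. With siControl against siGATA3, 0 of 15 probes did not overlap (6.15% of all probes), and between the knockdowns 3 of 15 (22.9%). Over the 9 arrays the brightest probe correlated with these at r = -0.56 and 0.03.

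BBC3 was the steadiest of the genes after quantile normalization, whose part in this was not tested. It read 17.79, 17.94 and 17.51 in siControl, 18.00, 17.92 and 17.90 in siGATA3 and 17.84, 17.83 and 17.92 in siHIF1A, with no spot marked as saturated. The groups overlapped throughout. The SD over arrays was 0.22, 0.055 and 0.049 in siControl, siGATA3 and siHIF1A, the lowest of the 10 genes in each group. The log2 fold changes of 0.19 in siGATA3 (-0.28 to 0.67) and 0.12 in siHIF1A (-0.36 to 0.59) became 0.07 and -0.00 without siControl replicate 3, the lowest array, and the latter was -0.33 when the scanner's processed signal was scaled to its 75th percentile. With percentile scaling after normexp the value in siHIF1A was -0.31. In siGATA3 against siHIF1A BBC3 was at 0.08 and reached 0.60 under the alternatives, short of the threshold in all of them.

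PMAIP1 was the most variable. The siControl arrays read 11.70, 13.15 and 15.04, the siGATA3 arrays 13.73, 13.22 and 14.66, and the siHIF1A arrays 12.94, 13.89 and 14.29. Both the lowest and the highest of the 9 arrays were siControl arrays, with an SD of 1.68 in that group against 0.73 in siGATA3 and 0.70 in siHIF1A. The log2 fold change was 0.57 in siGATA3 (SE 0.74, -1.09 to 2.23, unadjusted p = 0.461 in limma) and 0.41 in siHIF1A (SE 0.74, -1.25 to 2.07, unadjusted p = 0.596). Within slides siGATA3 differed from siControl by 2.03, 0.06 and -0.38 and siHIF1A by 1.24, 0.73 and -0.75. Without siControl replicate 3 both passed the threshold, at 1.44 (unadjusted p = 0.0295 in limma) and 1.28 (unadjusted p = 0.048), and without siControl replicate 1 they were -0.23 and -0.39.

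BID, which caspase-8 cleaves to link death receptors to mitochondria, read 13.02, 13.33 and 14.17 in siControl, 13.86, 13.08 and 13.84 in siGATA3 and 12.96, 13.09 and 13.32 in siHIF1A. The siHIF1A arrays were low and close together, but siControl replicate 1 and siGATA3 replicate 2 lay among them. The log2 fold change in siHIF1A against siControl was -0.38 (SE 0.34, -1.14 to 0.38, unadjusted p = 0.289 in limma), and siHIF1A was the lower on 3 of 3 slides, with -0.06, -0.24 and -0.85. The second BID probe read 11.87, 12.27 and 13.12, then 12.69, 11.99 and 13.13, then 11.60, 12.00 and 12.03 in the groups in the same order. It followed the first over the 9 arrays (r = 0.96), with -0.54 in siHIF1A (-1.39 to 0.31) and 0.73 between the knockdowns (-0.12 to 1.58, unadjusted p = 0.0856 in limma). With the replicate number as a block the latter difference of this probe passed the threshold (unadjusted p = 0.0381 in limma).

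BAD, whose protein is kept inactive by phosphorylation, read 10.92, 11.36 and 12.38 in siControl, 11.90, 11.42 and 12.47 in siGATA3 and 11.17, 11.74 and 11.75 in siHIF1A. All groups overlapped. In siGATA3 the log2 fold change was 0.38 (SE 0.41, -0.53 to 1.29, unadjusted p = 0.379 in limma), higher on 3 of 3 slides by 0.98, 0.06 and 0.09. In siHIF1A the mean was level with siControl, with an interval of -0.91 to 0.91. Without siControl replicate 3 the difference in siGATA3 was 0.79 and passed the threshold (unadjusted p = 0.0493 in limma).

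**Figure D3:**
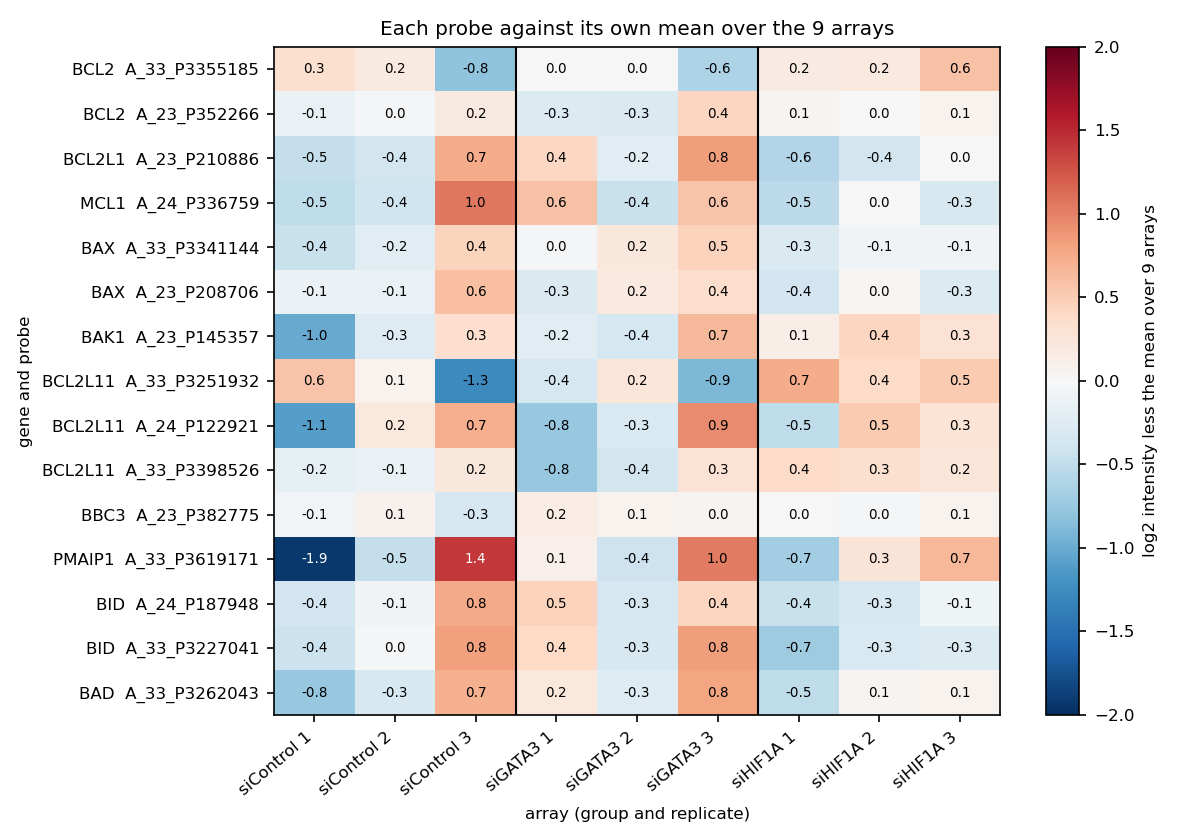
Log2 intensity of each of the 15 probes on each array less that probe's mean over the 9 arrays (colour and printed value, rows are probes, columns are arrays by group and replicate). The column of siControl replicate 3 is the highest siControl array for 12 of 15 probes, and the rows of the brightest BCL2 and BCL2L11 probes run the other way.

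Without siControl replicate 3, the dimmest of the 9 arrays, more of the family passed the threshold than without any other array. This array was the highest siControl array for 12 of 15 probes. The exceptions were BBC3 and the brightest BCL2 and BCL2L11 probes, for which it was the lowest. siControl replicate 1 was the lowest siControl array for 11 of 15 probes. Leaving out siControl replicate 3 moved the median log2 fold change of the 10 genes from 0.24 to 0.60 in siGATA3 and from 0.06 to 0.18 in siHIF1A. BAD, BCL2L1 (0.76, unadjusted p = 0.0479 in limma) and PMAIP1 then passed in siGATA3, when the count of all genes that passed went from 1404 to 6052. BAK1 and PMAIP1 passed in siHIF1A, when the count of all genes went from 2471 to 1649, and BCL2L11 passed between the knockdowns, when it went from 5689 to 9482. Leaving out siControl replicate 1 moved these medians to 0.08 and -0.29 instead, and changed the sign of 7 of 30 log2 fold changes, against 5 of 30 without siControl replicate 3. The part of array brightness in these differences was not tested.

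Within slides the family had no common direction. In siGATA3 against siControl, 8, 5 and 7 of the 10 genes were higher on slides 1, 2 and 3, with medians of 0.80, 0.02 and 0.09, and the 3 genes higher on every slide were BCL2L1, BAX and BAD. In siHIF1A against siControl, 6, 8 and 3 genes were higher, with medians of 0.10, 0.23 and -0.58, and BCL2L11 (higher) and BID (lower) kept 1 direction on every slide. Between the knockdowns 4 genes did so, BCL2L1 and BAX higher in siGATA3 and BCL2 and BCL2L11 lower. The share of all genes that kept 1 direction on every slide was not computed, so these counts have no background to be read against. The SD over the arrays of a group had a median of 0.67 over the 10 genes in siControl, 0.53 in siGATA3 and 0.21 in siHIF1A.

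Some pairs of the genes varied together over the arrays, and others did not. MCL1 and BID correlated at r = 0.94, BCL2L1 and BID at 0.94 and BCL2 and BCL2L11 at 0.92, whereas BCL2L11 and BID correlated at -0.95. BAK1 and BID correlated at 0.41, and BBC3 with the other genes at -0.44 (MCL1) to 0.55 (BCL2). The BCL2 and BCL2L11 values are those of their brightest probes. Each of these ran opposite to another probe of its own gene (r = -0.51 and -0.56). These values describe 9 arrays that share 3 groups, 3 slides and their own brightness. Among 15917 genes that had a symbol and passed the background mark on every array, the closest pattern to BCL2L11 was that of HAP1 (r = 0.998 over 9 arrays), to BCL2 that of KRTAP12-2 (0.99), to BCL2L1 that of DNAJB14 (0.985) and to MCL1 that of MAP2K5 (0.989). The closest to BAX was IRAK1 (0.975) and to BAK1 TUBB4B (0.979). For the other BH3-only genes they were EIF2AK2 for BAD (0.994), SNORA21 for BID (0.992), ACER3 for PMAIP1 (0.984) and LOC154449 for BBC3 (0.937). Each value is the highest of 15917 taken over 9 arrays.

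Around the family, 56 other genes of apoptosis were listed by role and all were measured. In siGATA3 against siControl 2 rose and 0 fell (3.57%, beside 2.94% of all genes), in siHIF1A against siControl 0 rose and 2 fell (3.57%, beside 5.22%), and between the knockdowns 7 were higher and 1 lower in siGATA3 (14.3%, beside 12%). None passed after adjustment in limma. The medians were 0.17, -0.12 and 0.27. By role, the genes above 0 in siGATA3 against siControl were 6 of 11 other BCL2 family genes, 8 of 9 of mitochondrial release and the apoptosome, 4 of 7 caspases, 4 of 5 inhibitors of apoptosis, 8 of 12 of the death receptor pathway and 8 of 12 upstream regulators, beside 47.9% of all genes.

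**Figure D4:**
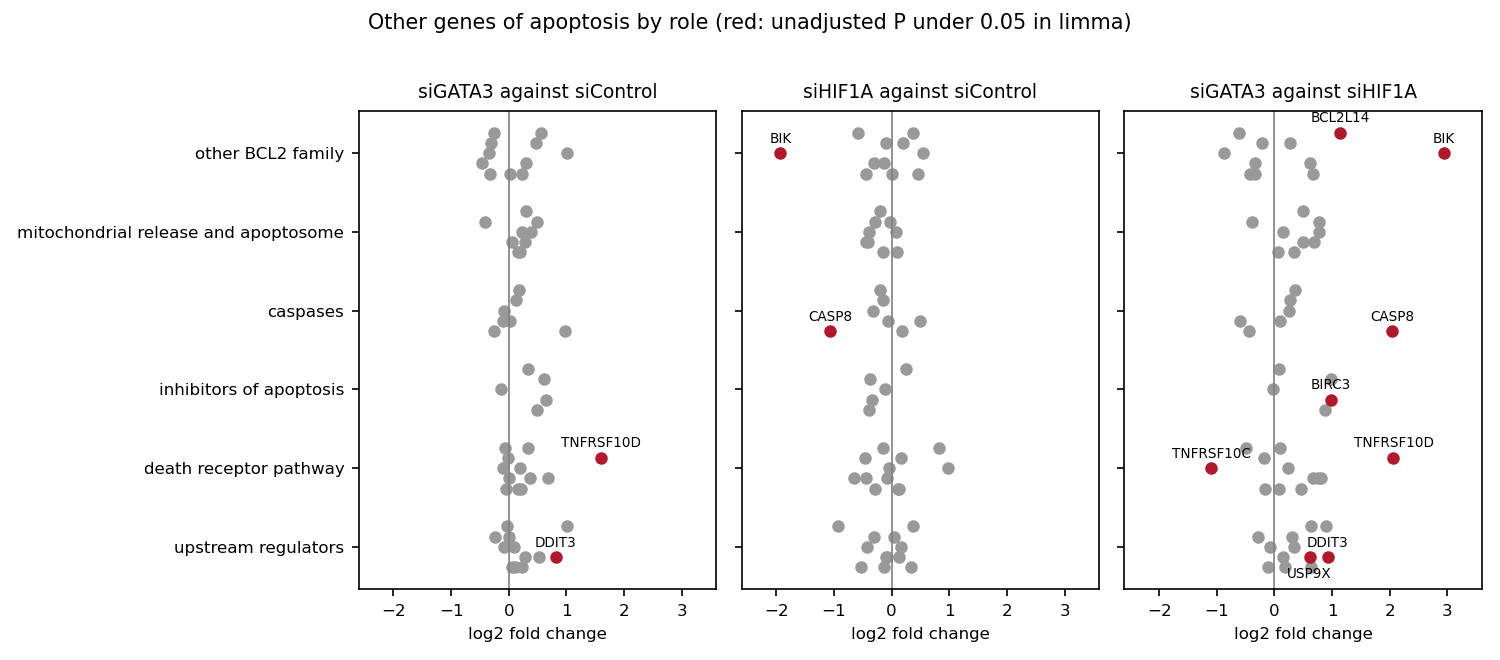
Log2 fold change (horizontal axis) of each of the 56 other apoptosis genes in the 3 comparisons, in rows by role, with red points and names for genes at an unadjusted p of 0.05 in limma. BIK stands at -1.93 in siHIF1A against siControl and at 2.94 between the knockdowns.

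BIK, a BH3-only protein of the endoplasmic reticulum and mitochondria, had the largest log2 fold changes of these genes in both comparisons that involve siHIF1A. It read 9.69, 10.55 and 11.91 in siControl, 11.61, 11.28 and 12.29 in siGATA3 and 8.39, 8.73 and 9.24 in siHIF1A, where 2 of 3 arrays were well above background. All siHIF1A arrays lay below all others. BIK fell 3.81-fold in siHIF1A (log2 fold change -1.93, SE 0.52, -3.08 to -0.78, unadjusted p = 0.00394, adjusted p = 0.744 in limma), on 3 of 3 slides, and remained past the threshold without any single array, at -2.44 to -1.33. Between the knockdowns it was 7.66-fold higher in siGATA3 (log2 fold change 2.94, SE 0.52, unadjusted p = 0.000209, adjusted p = 0.154 in limma). In siGATA3 against siControl it was 1.01 (unadjusted p = 0.0796), higher on 3 of 3 slides by 1.92, 0.73 and 0.38, and it passed with the replicate number as a block (unadjusted p = 0.0127 in limma). It was 1.61 without siControl replicate 3 (unadjusted p = 0.00259 in limma).

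CASP8, the initiator caspase of death receptors, read 10.23, 11.21 and 11.93 in siControl, 11.95, 11.76 and 12.60 in siGATA3 and 9.30, 10.66 and 10.20 in siHIF1A. The knockdowns did not overlap, and siControl lay across both. The log2 fold change in siGATA3 against siHIF1A was 2.05 (SE 0.48, 0.98 to 3.11, unadjusted p = 0.00163, adjusted p = 0.245 in limma) and passed without any single array, at 1.67 to 2.35. In siHIF1A against siControl CASP8 was at -1.07 (unadjusted p = 0.0492, adjusted p = 0.823 in limma), and 7 of the 9 fits that left out an array lost that call, as did separate fits of 6 arrays (unadjusted p = 0.0693). It passed without siControl replicate 1 or siHIF1A replicate 2 and was weakest without siControl replicate 3 (-0.67, unadjusted p = 0.177 in limma). CASP8 was at 0.98 in siGATA3 against siControl (unadjusted p = 0.0681 in limma), higher on 3 of 3 slides, and passed with the replicate block (unadjusted p = 0.019) and without siControl replicate 3 (1.38, unadjusted p = 0.0135).

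TNFRSF10D, a decoy receptor for TRAIL, read 13.06, 14.70 and 15.62 in siControl, 15.92, 15.57 and 16.69 in siGATA3 and 13.08, 14.57 and 14.33 in siHIF1A. It was higher in siGATA3 than in siHIF1A on all arrays (log2 fold change 2.07, SE 0.63, unadjusted p = 0.00833, adjusted p = 0.345 in limma), also without any single array. Against siControl it rose by 1.60 (SE 0.63, unadjusted p = 0.0293, adjusted p = 1 in limma). That call was lost without siControl replicate 1 (0.90, unadjusted p = 0.113 in limma), siGATA3 replicate 1 (1.67, unadjusted p = 0.0547) or siGATA3 replicate 3 (1.29, unadjusted p = 0.1).

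DDIT3, the stress factor CHOP, which can induce BCL2L11, read 14.31, 15.05 and 15.65 in siControl, 15.87, 15.37 and 16.23 in siGATA3 and 14.63, 15.05 and 15.02 in siHIF1A. It was higher in siGATA3 than in siControl by 0.82 (SE 0.36, unadjusted p = 0.0482, adjusted p = 1 in limma), a call kept in 2 of 9 fits without an array, those without siControl replicate 3 and siGATA3 replicate 2, and 0.47 without siControl replicate 1. Of the 12 alternatives, 5 kept the call. It was lost with the processed signal (0.72), the log2 table (0.70), percentile scaling after normexp (0.75) and an offset of 16. The dim filter, separate fits of 6 arrays and the adjusted p lost it as well. Between the knockdowns DDIT3 was at 0.92 (unadjusted p = 0.0296, adjusted p = 0.394 in limma). This call was lost without siGATA3 replicate 1 (0.90) or 3 (0.72) and without siHIF1A replicate 1 (0.79) or 3 (0.98).

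**Figure D5:**
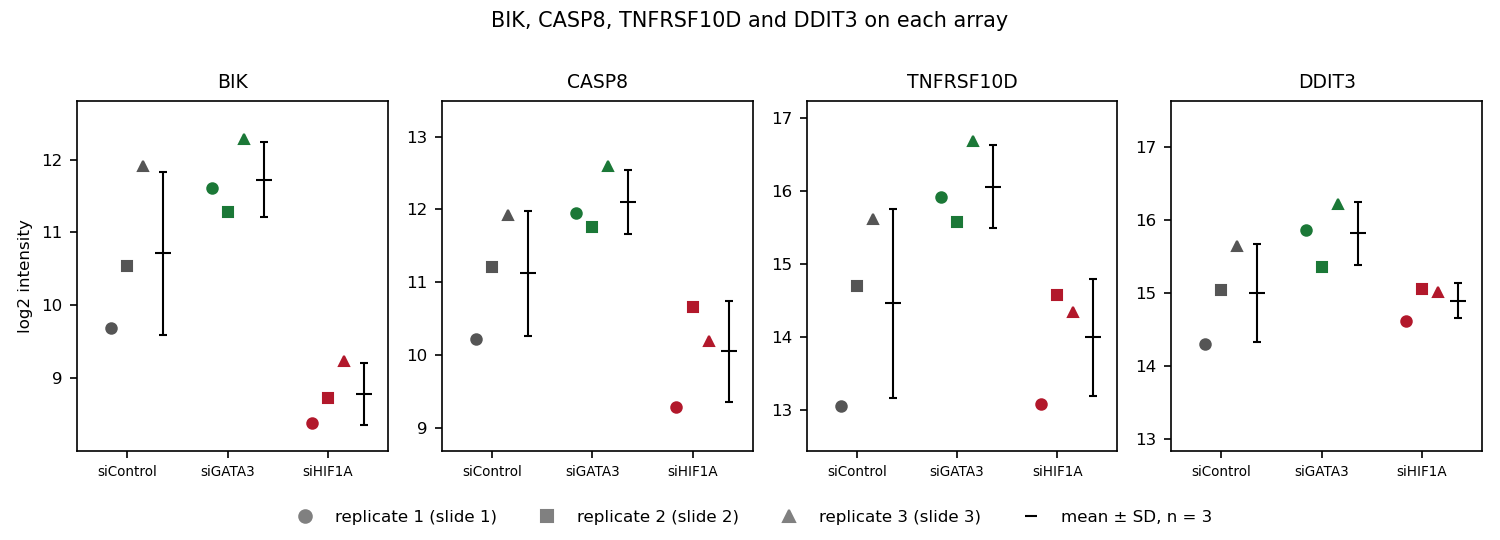
Log2 intensity of the brightest probes of BIK, CASP8, TNFRSF10D and DDIT3 (vertical axis) on the 3 arrays of each group, with the marker shape giving the replicate and slide and the bar the mean ± SD over 3 arrays. For all 4 genes the siGATA3 arrays lie above the siHIF1A arrays, and for BIK the siHIF1A arrays, from 8.39 to 9.24, also lie below siControl.

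Of the remaining genes that passed between the knockdowns, BCL2L14, a distant relative of the family, was higher in siGATA3 by 1.14 (SE 0.41, unadjusted p = 0.0204, adjusted p = 0.385 in limma). Its probe was well above background on 2 of 3 siHIF1A arrays, and the arrays of the knockdowns overlapped. The call was lost without siGATA3 replicate 3 (0.96), siHIF1A replicate 1 (1.08) or siHIF1A replicate 3 (0.77). USP9X, a deubiquitinase that stabilises MCL1 protein, was higher by 0.61 (SE 0.27, unadjusted p = 0.0499, adjusted p = 0.416 in limma) and kept its call in 2 of 9 fits without an array, those without siControl replicate 1 and siControl replicate 3, with 0.51 to 0.67 over all 9. TNFRSF10C, another TRAIL decoy receptor, was well above background on 3 of 3 siHIF1A arrays but on 1 of 3 siGATA3 arrays, so it was named through the group where it was high. Its log2 fold change was -1.10 (unadjusted p = 0.0475, adjusted p = 0.415 in limma), in a fit from which siControl replicate 1 and siGATA3 replicate 2 were missing as non-uniform spots, and it was -0.82 and short of the threshold with these spots kept. It was also short of it with the processed signal (-2.39, unadjusted p = 0.0653 in limma) and with the replicate block (unadjusted p = 0.0768). That call was lost without siGATA3 replicate 1 (-1.20) or 3 (-0.99) and without siHIF1A replicate 1 (-1.14) or 3 (-0.75). The last was BIRC3 (0.98, unadjusted p = 0.00892, adjusted p = 0.348 in limma), an inhibitor of apoptosis whose probe was well above background on 5 of 9 arrays. BIRC3 was at 0.64 in siGATA3 against siControl (unadjusted p = 0.0598 in limma) and passed with the replicate block (unadjusted p = 0.0339).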

How the data were processed

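The authors deposited scanner files, 1 for each array, made per the submitters' processing notes with Agilent Feature Extraction 10.5.1.1. They hold linear intensity: median spot signal, median local background and the background-subtracted processed signal, none normalized between arrays. They also deposited a table of log2 values, which matched the log2 processed intensity less 1 constant per array within 0.001 and served as an alternative. The genome build was not given in the sources used here.

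Here, limma 3.58.1 in R 4.3.3 was used: normexp (offset 50) on median signal and background, as the files hold no mean signal; non-uniform spots set to missing; quantile normalization over all spots; control spots dropped; spots of a probe averaged; the brightest probe per gene. RefSeq named 31104 of 58201 probes. The 3 groups were fitted together with lmFit and eBayes at an unadjusted two-sided p of 0.05, the threshold of the study's methods, with Benjamini-Hochberg adjusted p over all genes. The fit was tested on simulated data in which every value was drawn independently, so effects of slide or array brightness were not part of that test. The number of arrays limits precision. The family, the 56 other genes and the markers were chosen with earlier results of these data known. Named were all family probes, both targets, the closest pattern to each family gene, and those of the 56 that passed the threshold and were above the background mark on all 3 arrays of a group; BIRC3 was added after its values were seen.

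Alternatives were the processed signal at its 75th percentile, the log2 table, an offset of 16, no background correction, percentile scaling, a dim filter, non-uniform spots kept, the mean of a gene's probes, a replicate block, separate fits of 6 arrays, trended robust eBayes, adjusted p and each array left out.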

Additional observations from a re-analysis of the deposited data

How the results depend on the processing

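No family gene and no family probe passed the threshold in the main fit. Of the other apoptosis genes named, none that passed it there changed direction under any alternative. The 10 BCL2 family genes in 3 comparisons gave 360 values under 12 alternatives, of which 3 passed and 8 changed sign, and 270 values with an array left out, of which 9 passed and 24 changed sign. In siGATA3 against siControl, 1404 genes passed, and 3050 did with the processed signal, 2889 with the log2 table, 2387 with the replicate block, 922 in separate fits and 0 after adjustment. In siHIF1A against siControl, 2471 passed, 4214 with the block and 0 after adjustment. Between the knockdowns, 5689 passed, 8981 with the block, 8630 in separate fits and 2 after adjustment. The replicate block gave 2 family genes and 3 family probes between the knockdowns, the dimmer BID probe among the latter, and separate fits gave 1 of each. The processed signal and the log2 table each gave 1 family probe there (the dimmer BCL2 probe), and non-uniform spots kept gave 1 (a dimmer BCL2L11 probe). Of the 56 other genes, the first comparison gave 2, but 1 with the processed signal, the log2 table, an offset of 16, the dim filter or separate fits, 6 with the block and 0 after adjustment. The second gave 2, 1 with non-uniform spots kept and 0 after adjustment, and the third 8, 16 with the block, 16 in separate fits and 0 after adjustment. The cause was not tested.

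With 1 array left out, the genes passing ran from 946 to 6052, from 1406 to 4813 and from 2676 to 9728 in the 3 comparisons in this order, family genes from 0 to 3, 0 to 2 and 0 to 2, their probes from 0 to 3, 0 to 2 and 0 to 3, and the other genes from 0 to 11, 1 to 7 and 4 to 18. The shortened group then has 2 arrays. Same-numbered arrays deviated together with r from -0.191 to 0.722, over 0.1 for 7 of 9 pairs. Arrays that differed in both group and number had r from -0.691 to 0.475. Deviations from a group mean cancel within the group, so these ranges depend on each other. They cannot decide whether the numbers pair the samples. Each number shares a slide, and the main fit left the slide out.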
